A study of Mus musculus with 6 samples.

Results

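Ubiquitin-conjugating enzymes, or E2 enzymes, were followed in the RNA of mouse platelets. The family was taken as every row of the deposited expression table whose symbol begins with Ube2 and a further letter, with pseudogene rows left out. This gave 32 of 14975 genes, after 1 pseudogene row (Ube2d-ps) was set aside. One of them, Ube2cbp, encodes a protein that binds the E2 enzyme UBE2C and is not itself an E2 enzyme, so 31 rows are E2 genes or E2 variants. The family was chosen by its symbols, and it was selected on the FPKM values of Ube2d3 in the control and pre-AML libraries, which had been seen before. Therefore differences between the groups are given as a description and not as a test. Ube2d2b, Ube2u and Ube2ql1 were not analysed here.

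Platelets came from irradiated recipient mice on a C57BL/6 background, which the methods describe as female and 8 to 12 weeks old. BMT control mice, labelled WT, had received normal bone marrow cells. Pre-AML mice, labelled AML, had received cells from primary recipients of hematopoietic stem and progenitor cells carrying the MLL-AF9 oncogene and GFP from a retrovirus. Platelets were taken 1 week after that secondary transplantation. MLL-AF9 was in the transplanted cells, and sub-lethally irradiated recipients keep marrow of their own, so the labels do not say which platelets descend from transformed cells. There were 3 libraries per group, named control 1 to 3 and pre-AML 1 to 3 here. The series text mentions 2 replicates and pools of 3 to 4 mice while the paper mentions 3 independent mice, so the spread between libraries may be in part technical. Cells carrying the leukocyte antigen CD45 or the erythroid antigen Ter119 had been depleted.

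Ubiquitin is passed along a relay of enzymes. An E1 enzyme activates ubiquitin and hands it to the active-site cysteine of an E2 enzyme, and an E3 ligase then brings the loaded E2 to a substrate. The E2 enzyme largely sets which kind of ubiquitin chain is built, and some E2 enzymes carry ubiquitin-like proteins such as NEDD8 or ISG15 in place of ubiquitin. Platelets have no nucleus and hold RNA inherited from megakaryocytes, together with ubiquitin, proteasomes and their associated enzymes.

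Several E2 genes come in closely related pairs, and the comparison of their levels requires that reads can be told apart. The coding sequence around the codon of the active-site cysteine is shown for Ube2a with Ube2b and for Ube2d1 with Ube2d3, which it separates. The stretch of Ube2d2a, whose coding sequence is closer to that of Ube2d3, is not shown. Each line gives 60 bases, 5′ to 3′ on the coding strand with introns left out, from the GENCODE M21 annotation of GRCm38 (mm10), and capitals mark the bases that differ from the other member of the pair.
Ube2a: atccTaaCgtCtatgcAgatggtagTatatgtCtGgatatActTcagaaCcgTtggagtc
Ube2b: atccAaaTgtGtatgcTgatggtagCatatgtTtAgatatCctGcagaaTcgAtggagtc
Ube2d1: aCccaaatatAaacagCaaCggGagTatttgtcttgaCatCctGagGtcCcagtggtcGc
Ube2d3: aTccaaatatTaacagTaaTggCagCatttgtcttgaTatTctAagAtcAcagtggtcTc

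The Ube2a stretch lies in exons 4 and 5 at chrX:36881738-36882649 on the plus strand, and that of Ube2b in exons 4 and 5 at chr11:51988650-51991402 on the minus strand. These positions span an intron. The Ube2d1 stretch lies in exon 5 at chr10:71258222-71258281 on the minus strand, and the Ube2d3 stretch in exon 6 at chr3:135460000-135460059 on the plus strand. Within these 60 bases, Ube2a and Ube2b differed at 11 positions and Ube2d1 and Ube2d3 at 12. Over the whole coding sequence of 459 bases, Ube2a and Ube2b were 77.6% identical, and their longest identical run was 17 bases. The coding sequences of the UBE2D genes, of 444 bases each, were 77.3% identical between Ube2d1 and Ube2d3, 76.1% between Ube2d1 and Ube2d2a, and 86.3% between Ube2d2a and Ube2d3, with a longest identical run of 42 bases in the last pair. Stretches of 50 bases shared with any other annotated gene made up 0.00% of the transcripts of Ube2a, Ube2b and Ube2d1, 3.48% of those of Ube2d3 and 4.73% of those of Ube2d2a, the last mostly shared with a processed pseudogene.

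Other members are less separable by sequence. Shared stretches reached 63.5% in Ube2v1, most of it within the overlapping gene Gm20431 on the same strand. They reached 44.2% in Ube2h, nearly all shared with the noncoding gene Gm26526. In Ube2l3 the share was 32.2%, mostly in exons that overlap Ydjc on the opposite strand, and in Ube2e1 it was 19.6%, mostly in exons that overlap Nkiras1 on the opposite strand. The library kit does not mark strand, so reads of such overlaps cannot be assigned. Ydjc was listed at 0 to 0.0460 FPKM in the 6 libraries and Nkiras1 at 0.230 to 0.546 FPKM. In the text, levels of Ube2v1, Ube2h, Ube2l3 and Ube2e1 are therefore uncertain.

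The libraries held between 11444341 and 17030091 reads on the listed genes, as recovered from the deposited FPKM values (reads per length and library size). The library size behind the FPKM values exceeded these reads by a factor of 1.02 to 1.06, except for pre-AML 3 with a factor of 1.37, so FPKM values of pre-AML 3 are lower for the same share of reads. Deviations of genes from their mean were related to GC content, with Spearman coefficients across genes of -0.40 to -0.30 in the controls and of -0.05, 0.31 and 0.49 in pre-AML 1, 2 and 3, as a description over genes of the same libraries. The 12 platelet markers had a summed level of 90333 to 114432 FPKM in the controls and 61666 to 92727 FPKM in pre-AML platelets, most of it from Pf4 and Ppbp. Gp1bb was the lowest of them, at 2.42 to 4.78 FPKM in the controls and 2.71 to 3.03 FPKM in pre-AML platelets. Ptprc, the gene of CD45, was between 0.00600 and 0.140 FPKM in the first 4 libraries, 0.179 FPKM in pre-AML 2 and 1.57 FPKM in pre-AML 3. The 16 leukocyte markers had an overlapping summed level of 5438 to 6103 FPKM in the controls and 5777 to 6148 FPKM in pre-AML platelets, most of it from Lyz2 and Fcer1g. Of these markers, 3 (Tyrobp, Gzma and Ptprc) were higher and 0 lower in every pre-AML library, and Gzma was the 1 gene past the threshold of the test over all genes. Cd74 and Tyrobp reached 168.0 and 153 FPKM in pre-AML 3.

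The E2 family was led by 4 genes. Summed over all members, the level was 323.8, 327.1 and 336.5 FPKM in control 1, 2 and 3 and 315.1, 301.7 and 227.2 FPKM in pre-AML 1, 2 and 3. Only pre-AML 3 lay far from the other libraries. Ube2r2, Ube2b, Ube2l6 and Ube2o together made up 70.02% to 76.1% of this sum in every library. The 22 members that averaged 1 FPKM or more had a median control level of 4.68 FPKM, against 4.84 FPKM for all 4412 genes above that limit, and the other 10 lay below it.

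**Figure D1:**
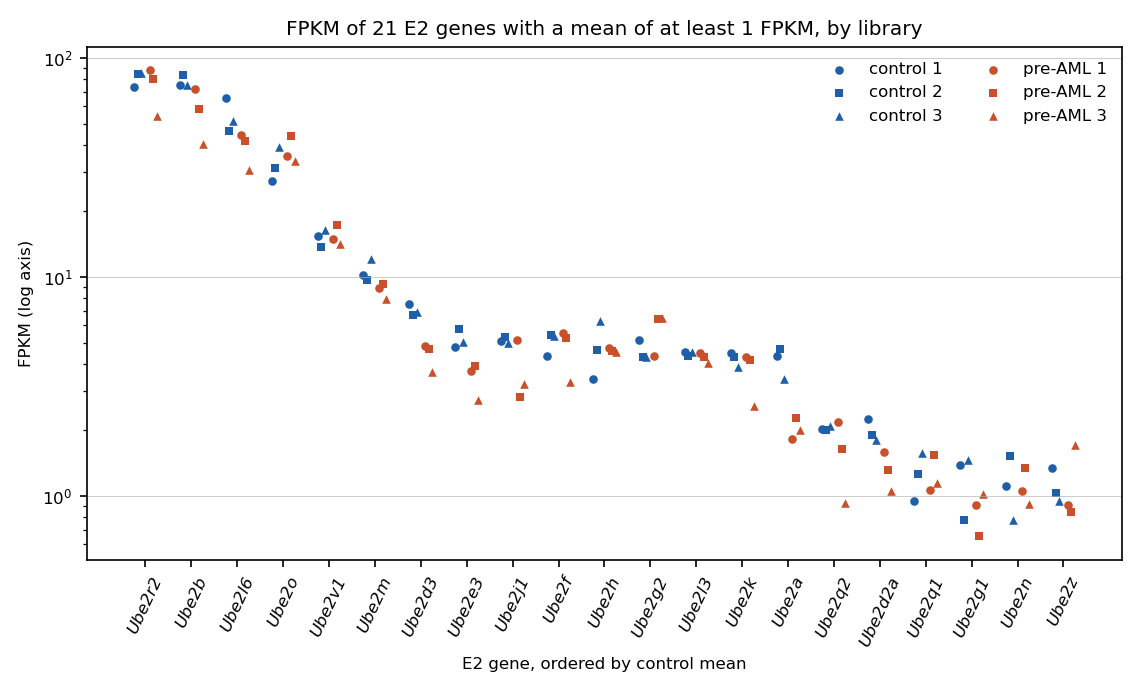
FPKM on a log axis for 21 of the 22 E2 genes that averaged 1 FPKM or more, ordered by control mean, with 3 control libraries in blue and 3 pre-AML libraries in red. Ube2r2, Ube2b, Ube2l6 and Ube2o stand above 25 FPKM in every library, and all 3 pre-AML points of Ube2a and Ube2d3 lie below all control points.

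Ube2r2 and Ube2b had the highest levels. Ube2r2 encodes a CDC34-type E2 that works with cullin-RING ligases. Its level was 73.5, 84.2 and 85.3 FPKM in the controls and 87.7, 80.1 and 54.1 FPKM in pre-AML platelets, and its control mean exceeded that of 97.1% of all listed genes. The groups overlapped, with pre-AML 1 highest and pre-AML 3 lowest. The sister gene Cdc34, which the symbol rule does not include, had 4.70 ± 0.535 FPKM in the controls and 5.63 ± 0.468 FPKM in pre-AML platelets (SD, n = 3). Ube2r2 thus stood 14.9-fold above Cdc34 on average, in 6 of 6 libraries.

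Ube2a and Ube2b are the mouse forms of yeast RAD6. Both work with RAD18 in the response to DNA damage and with RNF20 and RNF40 in the ubiquitination of histone H2B. Ube2b had 75.4, 83.4 and 75.2 FPKM in the controls and 71.9, 58.2 and 40.4 FPKM in pre-AML platelets. All pre-AML libraries were below all controls, although pre-AML 1 was close to them. Its log2 fold change, on the log2(FPKM + 1) scale and as pre-AML minus control, was -0.49 (standard error 0.21). Without pre-AML 3 it was -0.26, and with length and GC trends removed -0.27.

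Ube2a was much less abundant than its paralog. Its level was 4.33, 4.67 and 3.41 FPKM in the controls and 1.82, 2.26 and 2.00 FPKM in pre-AML platelets, from 109, 141 and 87 reads and 52, 73 and 100 reads. The groups were separated by more than 1 FPKM, and pre-AML 3 did not stand apart from the other pre-AML libraries. The log2 fold change was -0.76 (standard error 0.15), the largest in either direction among the 22 members. Leaving out pre-AML 3 gave -0.75, and the value was -0.54 after trends with transcript length and GC content had been removed within each library. The GC content of the Ube2a and Ube2b transcripts was 42.1% and 42.2%, below the median of 49.8% over all genes tested.

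Within each library, Ube2b exceeded Ube2a by 19.0-fold in control and 27.4-fold in pre-AML platelets on average (geometric means). The log2 ratio of Ube2a to Ube2b was -4.12, -4.16 and -4.46 in control and -5.30, -4.69 and -4.34 in pre-AML libraries. The groups overlapped because pre-AML 3, where both genes were low, fell within the control range. With the length of the principal transcript of each gene in place of the length behind the FPKM values, the mean ratio was -4.45 against -4.51, so the order of these paralogs did not rest on the gene model. Of their partner ligases, Rad18 was at 0.506 FPKM, Rnf20 at 0.334 FPKM and Rnf40 at 0.304 FPKM in the control mean, all below the limit of 1 FPKM. In the pre-AML mean they were at 0.345, 0.477 and 0.790 FPKM. Rad18 was lower and Rnf40 higher in every pre-AML library, against 2.80% and 8.11% of genes below the limit, and Rnf20 overlapped.

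The UBE2D and UBE2E enzymes act with many RING ligases, and UBE2D enzymes can begin chains on a wide range of substrates. Ube2d3 was the highest of them at 7.50, 6.67 and 6.91 FPKM in the controls and 4.83, 4.68 and 3.65 FPKM in pre-AML platelets. Every pre-AML value was below every control value, and the gap between the groups was wider than the range within either one. Its log2 fold change was -0.58 (standard error 0.14), and -0.48 without pre-AML 3. With length and GC trends removed it was -0.23. Ube2d3 transcripts had a GC content of 37.5%, the lowest among the members that were lower in every pre-AML library.

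Ube2d2a had 2.23, 1.90 and 1.79 FPKM in the controls and 1.59, 1.31 and 1.05 FPKM in pre-AML platelets. Its groups also did not overlap, but the log2 fold change of -0.37 (standard error 0.17) came to -0.055 once length and GC trends were removed. Its GC content was 38.8%. Ube2d1 was below 0.54 FPKM in all libraries, with 14 to 33 reads in control and 20 to 32 reads in pre-AML platelets, with overlapping groups.

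The distances between the UBE2D genes depended on the length used, while their order did not. In the deposited values Ube2d3 stood 3.47-fold above Ube2d2a and 14.6-fold above Ube2d1 on average, in 6 of 6 libraries. Behind those values was a length of 11613 bases for Ube2d2a and 6661 bases for Ube2d3, while the principal transcripts of the annotation are 2480 and 3833 bases long. On the principal lengths, Ube2d3 was 1.29-fold above Ube2d2a and 8.30-fold above Ube2d1. The low place of Ube2d1 was thus common to both lengths, and the distance between Ube2d3 and Ube2d2a was not. The log2 ratio of Ube2d2a to Ube2d3 lay between -1.95 and -1.61 over the 6 libraries, a narrow range in which the groups overlapped.

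Among the UBE2E genes, Ube2e3 had 4.75, 5.76 and 5.05 FPKM in the controls and 3.70, 3.91 and 2.73 FPKM in pre-AML platelets. These groups were separate as well. The log2 fold change was -0.48 (standard error 0.16), -0.36 without pre-AML 3 and -0.34 with length and GC trends removed. Ube2e1 was at 0.936 ± 0.119 FPKM in the controls and 0.811 ± 0.183 FPKM in pre-AML platelets (SD, n = 3). Ube2e2 had 0 to 10 reads per library.

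**Figure D2:**
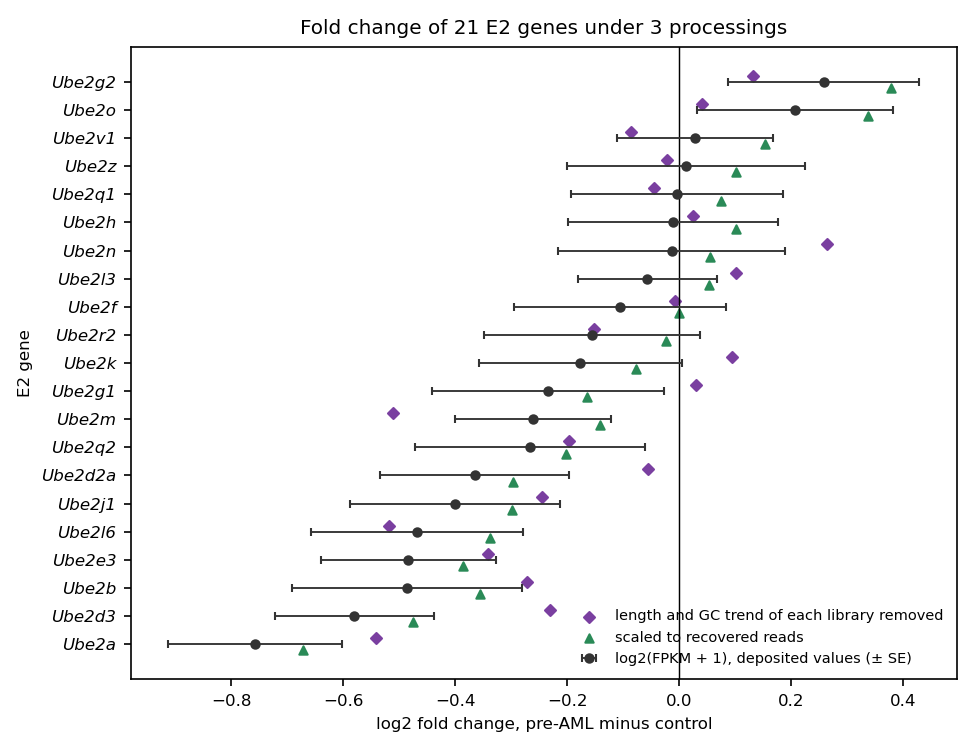
Log2 fold change (pre-AML minus control) of 21 of the 22 tested E2 genes on the log2(FPKM + 1) scale, as black points with bars of 1 standard error, with the same values after scaling to recovered reads (triangles) and after removal of length and GC trends (diamonds). Ube2a and Ube2d3 are lowest at -0.76 and -0.58, and Ube2d3 moves to -0.23 without the trends.

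Some E2 enzymes serve ubiquitin-like proteins. NEDD8 is carried by UBE2M and UBE2F, which charge different cullins. Ube2m had 10.2, 9.65 and 12.0 FPKM in the controls and 8.87, 9.25 and 7.89 FPKM in pre-AML platelets. Its groups were separate by a small distance, with a log2 fold change of -0.26 (standard error 0.14) that was -0.14 after scaling to recovered reads, when its groups overlapped. At 63.4%, its GC content was the highest of the lower members, and its log2 fold change was -0.51 with the trends removed. Ube2f had 4.35 to 5.43 FPKM in the controls and 3.30 to 5.53 FPKM in pre-AML platelets, which overlapped.

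UBE2L6 is the E2 of ISG15, a ubiquitin-like protein induced by interferon. Ube2l6 had 65.3, 46.2 and 51.5 FPKM in the controls and 44.5, 41.8 and 30.9 FPKM in pre-AML platelets. The lowest control stood just above the highest pre-AML library. The log2 fold change was -0.47 (standard error 0.19), -0.31 without pre-AML 3 and -0.52 with length and GC trends removed. The E1 enzyme of ISG15, Uba7, had 61.8 ± 3.77 FPKM in the controls and 71.6 ± 9.46 FPKM in pre-AML platelets (SD, n = 3), and Isg15 itself had 51.3 ± 6.49 and 48.1 ± 10.3 FPKM. Both overlapped between the groups. Of 12 interferon-stimulated genes, 1 was lower in every pre-AML library and 0 were higher, against 12.8% and 6.14% of all genes tested. Their summed level was 3820 to 4403 FPKM in the controls and 2739 to 3927 FPKM in pre-AML platelets, most of it from Ifitm3. Ifitm3 alone had 3687 to 4254 FPKM and 2635 to 3778 FPKM. Their part in the level of Ube2l6 was not tested.

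Ube2l3, which encodes UBCH7, an E2 of HECT and RBR ligases, is the closest relative of Ube2l6 here. It had the narrowest relative spread over the 6 libraries among the tested members, from 4.37 to 4.53 FPKM in the controls and from 4.03 to 4.48 FPKM in pre-AML platelets. The log2 ratio of Ube2l3 to Ube2l6 was -3.85, -3.40 and -3.51 in control and -3.31, -3.28 and -2.94 in pre-AML libraries. These ratios did not overlap between the groups, at a mean of 12.0-fold in control and 9.06-fold in pre-AML platelets. The spread and the ratios of Ube2l3 carry the uncertainty from the Ydjc overlap given above. Ube2z, the E2 that takes ubiquitin from UBA6, was at 0.946 to 1.34 FPKM in the controls and 0.846 to 1.71 FPKM in pre-AML platelets, while Uba6 was at 0.0635 FPKM in the control mean.

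The E2 enzymes of the endoplasmic reticulum help remove misfolded proteins. Ube2j1 had 5.07, 5.31 and 5.0 FPKM in the controls and 5.13, 2.84 and 3.25 FPKM in pre-AML platelets. The controls were close together, and pre-AML 1 lay among them while pre-AML 2 and pre-AML 3 lay below. The log2 fold change was -0.40 (standard error 0.19). Its relative Ube2j2 was below the limit of 1 FPKM, with 7 to 21 reads in control and 20 to 41 reads in pre-AML platelets. The log2 ratio of Ube2j1 to Ube2j2 was 4.85, 3.78 and 5.04 in control and 3.72, 3.05 and 2.84 in pre-AML libraries, which did not overlap, though control 2 was only just above pre-AML 1.

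Ube2g2 is also an E2 of this pathway. Its level was 5.15, 4.30 and 4.32 FPKM in the controls and 4.33, 6.43 and 6.49 FPKM in pre-AML platelets, with a log2 fold change of 0.26 (standard error 0.17), or 0.13 with length and GC trends removed. Pre-AML 1 was at the level of the lower controls, so the groups overlapped. Ube2g1 was lower, at 0.776 to 1.45 FPKM in the controls and 0.651 to 1.02 FPKM in pre-AML platelets. Ube2g2 exceeded Ube2g1 in 6 of 6 libraries, by 5.15-fold on average. Ube2k, which extends degradative chains, had 4.48, 4.30 and 3.87 FPKM in the controls and 4.30, 4.18 and 2.57 FPKM in pre-AML platelets. Only pre-AML 3 was below the controls for Ube2k.

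UBE2N builds signaling chains together with UBE2V1 or UBE2V2, variants that lack the active-site cysteine. Ube2n was at 1.11, 1.52 and 0.776 FPKM in the controls and 1.05, 1.33 and 0.914 FPKM in pre-AML platelets. Ube2v1 was listed much higher, at 13.7 to 16.3 FPKM in the controls and 14.2 to 17.2 FPKM in pre-AML platelets, with the uncertainty from Gm20431 given above. The log2 fold changes of both genes were near 0, at -0.014 and 0.027, and turned sign with length and GC trends removed, to 0.26 and -0.086. Ube2v2 had 1 to 8 reads in any library, so Ube2v1 was the main variant by a wide margin, with a mean log2 ratio of 8.08 that ranged from 6.75 to 9.84 because of the few reads on Ube2v2.

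**Figure D3:**
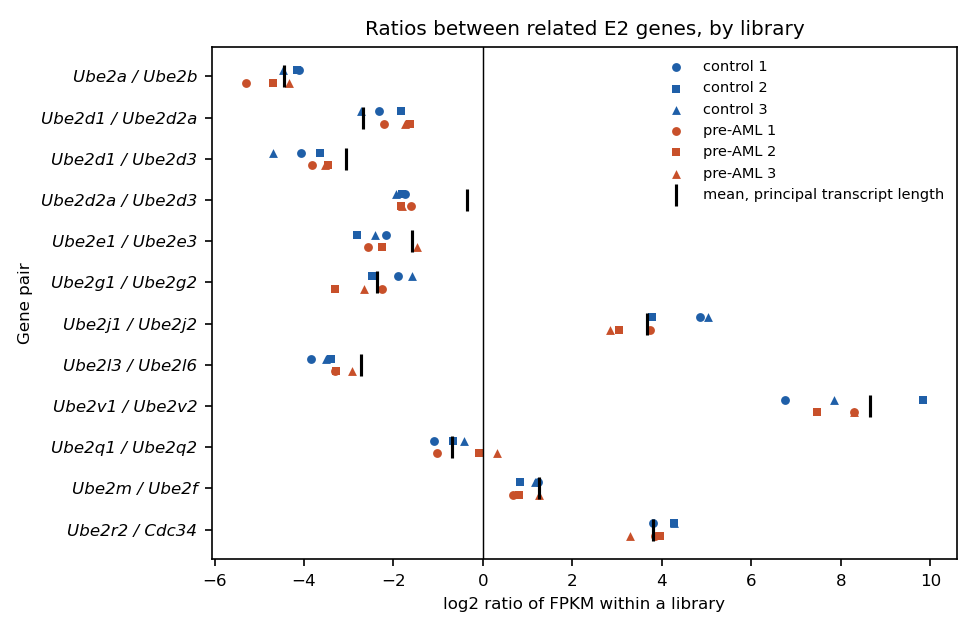
Log2 ratio of FPKM between related E2 genes within each library, with controls in blue and pre-AML libraries in red, and a black bar for the mean over the 6 libraries with principal transcript lengths. Ube2a lies below Ube2b in every library, and the bar for Ube2d2a and Ube2d3 lies at -0.36, far from the deposited ratios.

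Large and atypical members included an abundant gene. Ube2o encodes a large enzyme that combines E2 and E3 activity and removes ribosomal and unassembled proteins in maturing red cells. It had 27.4, 31.3 and 39.3 FPKM in the controls and 35.6, 43.9 and 33.6 FPKM in pre-AML platelets, with overlap between the groups. The log2 fold change was 0.21 (standard error 0.17), and 0.041 with length and GC trends removed. Its share of the summed E2 level was 8.47%, 9.58% and 11.7% in control and 11.3%, 14.5% and 14.8% in pre-AML libraries. Ube2h, an E2 that works with the CTLH ligase in erythroid cells, had 3.42, 4.62 and 6.28 FPKM in the controls and 4.75, 4.59 and 4.51 FPKM in pre-AML platelets. Erythroid markers had a summed level of 2548 to 2823 FPKM in the controls and 2529 to 3186 FPKM in pre-AML platelets, and their part in either gene was not tested.

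Ube2q1 and Ube2q2 were at similar levels, with Ube2q1 higher in 1 of 6 libraries. Ube2q2 had 2.02, 2.00 and 2.09 FPKM in the controls and 2.16, 1.63 and 0.926 FPKM in pre-AML platelets. Pre-AML 1 was above the controls and the other pre-AML libraries below. Ube2q1 lay between 0.947 and 1.57 FPKM in the controls and between 1.06 and 1.53 FPKM in pre-AML platelets. Ube2w, which attaches ubiquitin to the amino terminus of proteins, had 6 to 23 reads in control and 20 to 38 reads in pre-AML platelets.

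E2 genes of dividing cells were nearly absent from control platelets. UBE2C and UBE2S begin and extend chains for the anaphase-promoting complex, and UBE2T is the E2 of the Fanconi anemia pathway. Ube2c had 1, 0 and 0 reads in control and 6, 20 and 43 reads in pre-AML platelets. All pre-AML libraries were above all controls, although the level remained under 0.71 FPKM. Per read on the listed genes, the pooled rate was 56.4 times as high in pre-AML libraries, with an exact 95% interval of 9.80 to 2261 that covers counting error only. This ratio rests on 1 read in the controls, all of it in control 1, and on pre-AML 3 for 43 of 69 reads. Without pre-AML 3 it was 34.5, with an interval of 5.67 to 1416. Exons of Ube2c overlap those of Tnnc2 on the opposite strand over 22.8% of their length, and Tnnc2 was not analysed here.

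Ube2t had 1, 1 and 0 reads in control and 7, 5 and 13 reads in pre-AML platelets, which also did not overlap. Ube2s had 1, 3 and 0 reads in control and 2, 6 and 10 reads in pre-AML platelets, and its groups overlapped. Exons of Ube2s overlap those of Rpl28 on the opposite strand over 3.56% of their length. Rpl28 had 0.228 to 4.35 FPKM in the controls and 1.88 to 4.47 FPKM in pre-AML platelets. Its part in the reads of Ube2s was not tested. The lengths of Ube2t and Ube2s were fitted from the values, at 1784 and 1705 bases. Their annotated exons cover 4836 and 5141 bases, so the true reads may be multiples of those printed. Ube2cbp had 0, 0 and 0 reads in control, which does not show absence, and 0, 3 and 7 reads in pre-AML platelets. Among the 10 members below the limit of 1 FPKM, 2 (Ube2c and Ube2t) had groups that did not overlap with pre-AML higher, against 8.11% of the 10563 genes below it, and 0 had pre-AML lower, against 2.80%. Nothing about the family is read from these counts.

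The summed level of 12 markers of proliferating cells was 0.981 to 1.68 FPKM in the controls and 1.75, 2.48 and 4.44 FPKM in pre-AML 1, 2 and 3. All of them were below the limit of 1 FPKM on average. Mki67 and Top2a were at no more than 0.310 and 0.138 FPKM in any library, and 2 of the 12 (Cdc20 and Cdk1) were higher in every pre-AML library, against 8.11% of genes below the limit. The other 10 overlapped between the groups. Whether RNA of other cells took part in the values of Ube2c and Ube2t was not tested. In bulk samples, more cells of a type and more RNA per cell cannot be told apart.

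**Figure D4:**
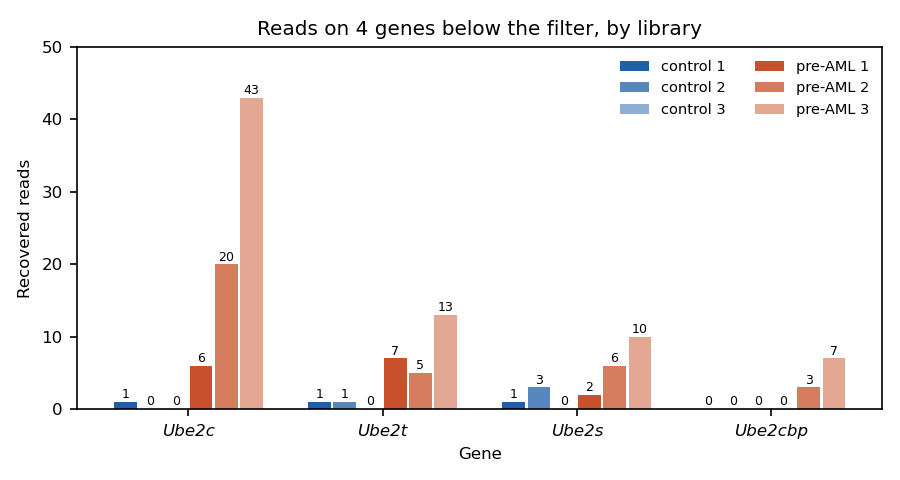
Recovered reads in each library on Ube2c, Ube2t, Ube2s and Ube2cbp, with the number above each bar, 3 control libraries in blue and 3 pre-AML libraries in red. Controls hold 0 to 3 reads on any of these genes and pre-AML 3 holds up to 43. Reads on Ube2t and Ube2s rest on fitted lengths and may be multiples of those drawn.

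Over the 22 tested members, 17 had a log2 fold change below 0, the direction of 58.5% of all 4412 genes, and 5 had one above 0, the direction of 41.5%. The median log2 fold change was -0.17, against -0.055 over all genes tested. The library medians of the members, relative to the control mean, were -0.054 and -0.11 in pre-AML 1 and 2 and -0.43 in pre-AML 3. The members of pre-AML 3, the library with the divergent scaling, were thus the lowest. With libraries scaled to their recovered reads, the median of the members was -0.051 and that of all genes 0.055, and 13 of the 22 members were below 0. With length and GC trends removed, the medians were -0.050 and -0.033, and the median GC content was 47.8% for the tested members and 49.8% for all tested genes. Without pre-AML 3 the medians were -0.048 and -0.027, and 12 of the 22 members were below 0.

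Groups did not overlap, with pre-AML lower, for 7 members (Ube2a, Ube2b, Ube2d2a, Ube2d3, Ube2e3, Ube2l6 and Ube2m), against 12.8% of all genes tested, and with pre-AML higher for 1 member, against 6.14%. Since values of this comparison led to the choice of the family, nothing is read from these counts. With the length and GC trends removed, Ube2a, Ube2d3, Ube2e3, Ube2l6 and Ube2m remained separate and Ube2b and Ube2d2a did not.

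In limma-trend over all genes with Benjamini-Hochberg adjustment, 0 of the 22 members had an adjusted p under 0.05, against 1 gene higher (0.0227%) and 0 genes lower (0.00%) among all 4412. The lowest adjusted p of a member was 0.522, shared by 8 members. At an unadjusted p under 0.05, 5 members were lower (Ube2a, Ube2b, Ube2d3, Ube2e3 and Ube2l6), against 6.53% of all genes, and 0 were higher, against 2.56%. Limma-voom on recovered reads also gave 0 members under 0.05 after adjustment, and 6 lower and 1 higher at an unadjusted p under 0.05, against 6.01% and 5.17% of all genes in that fit. The family was selected on values of Ube2d3 in this comparison, and Ube2d3 is counted among its members. Nothing about the family is therefore read from these counts or from the directions given above.

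The rest of the pathway was described from 6 lists, in none of which a gene passed the threshold of limma-trend. Counts of list genes whose groups did not overlap are to be set beside the 12.8% of all tested genes with pre-AML lower and the 6.14% with pre-AML higher, and nothing particular to a list is read from them. Among 6 tested E1 genes, 0 were lower and 1 (Sae1) was higher in every pre-AML library. Sae1 had 1.67, 1.45 and 1.13 FPKM in the controls and 2.20, 2.42 and 2.46 FPKM in pre-AML platelets. The main ubiquitin E1, Uba1, had 41.0 ± 3.27 FPKM in the controls and 33.7 ± 6.69 FPKM in pre-AML platelets (SD, n = 3). Ubiquitin and its relatives had 12 tested genes, led by Ubb at 719.7 ± 76.8 and 751.5 ± 66.7 FPKM and Ubl5 at 195 ± 15.1 and 176 ± 38.5 FPKM. Of the 12, only Fau was separate between the groups, at 162 ± 7.31 and 190 ± 9.84 FPKM. Among 6 tested genes of E2 enzymes and E2-fold proteins outside the symbol rule, Ufc1, the E2 of UFM1, had 12.7 and 11.4 FPKM. Tsg101, an E2-fold protein of endosomal sorting, was lower in every pre-AML library, at 5.90, 4.89 and 4.46 FPKM in the controls and 3.44, 3.25 and 2.70 FPKM in pre-AML platelets.

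Ligases had 18 tested genes, of which 3 (Marchf6, Nedd4 and Arih1) were lower and 1 (Rbck1) was higher in every pre-AML library. Marchf6, a ligase of the endoplasmic reticulum, had 12.3, 11.7 and 13.6 FPKM in the controls and 9.70, 10.1 and 8.05 FPKM in pre-AML platelets. Birc2 and Anapc11 had the highest control levels of this list, at 71.2 and 21.6 FPKM, with 61.9 and 22.2 FPKM in pre-AML platelets. Of 11 tested cullin and neddylation genes, Dcun1d1, which promotes transfer of NEDD8 to cullins, was lower at a mean of 5.13 against 3.84 FPKM and Elob was higher at 62.6 against 74.2 FPKM. Skp1, the most abundant of them, had 107 ± 21.2 and 75.4 ± 22.5 FPKM (SD, n = 3). Among 7 tested deubiquitinase genes, Uchl5 was lower in every pre-AML library, at 1.39 against 1.08 FPKM, while Otulin and Otub1 had the highest control levels at 10.0 and 4.82 FPKM and overlapped between the groups.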

How the data were processed

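Platelet RNA was amplified with SMART-Seq2 and sequenced after Nextera XT tagging, which keeps no strand. STAR alignments to mm10 and DESeq2 were used by the authors, and the FPKM values they deposited for 14975 genes and 6 libraries were used here; the counting program and annotation are not given in the sources used here. Reads were recovered from FPKM with GENCODE M21 exon lengths (83.0% of positive values whole within 0.05 of a read) and, for 2723 further genes, with the shortest whole-base length up to 60000 that gave whole reads, after which 99.97% of values were whole. Because lengths were fitted for those genes, that second share is partly built in, and reads on genes with few reads may be multiples of the printed ones. On a gene of 2 kb, 3 reads are worth 0.0643 to 0.128 FPKM.

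FPKM values are no counts, so log2(FPKM + 1) was fitted for the 4412 genes that averaged 1 FPKM or more, with limma-trend (limma 3.58.1, R 4.3.3), with a Benjamini-Hochberg threshold of 0.05 over all genes. The pseudocount makes fold changes of low genes too small. The fit was checked on simulated data whose changes were larger than those of any tested member. The simulation held no divergent library and no GC trend. The check therefore does not cover such libraries or changes of the size given here. Figures and ratios were made in Python 3.11.15 with pandas 2.3.3 and scipy 1.17.1.

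The members and gene lists were chosen with earlier results of these data known. Named genes are Ube2d3, paralogs, the 8 most abundant members, the 5 largest differences in each direction, members whose groups do not overlap, and 2 abundant genes of each list. Other members and pathway genes named with values (such as Ube2k, Sae1, Fau and Marchf6) were picked with their values in view. A few genes that the naming rule would include are not reported here and not drawn. Alternatives were recovered-read scaling, quantile normalization, a pseudocount of 0.1, no filter, a replicate block, removal of length and GC trends by loess, limma-voom on recovered reads, and leaving out each library. Limma-voom with the library sizes behind FPKM, principal transcript lengths and the recount of separate groups were added after seeing the data.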

Additional observations from a re-analysis of the deposited data

How the results depend on the processing

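The count of E2 members under the adjusted threshold of limma was 0 in all 14 alternatives, with a lowest adjusted p of 0.312. The median log2 fold change of the members lay between -0.27 (without pre-AML 1) and -0.048 (without pre-AML 3) when each library was left out in turn, and between -0.21 and -0.050 in the other alternatives. The replicate block gave 0 members and a median of -0.17, and the numbers did not pair the libraries, with correlations of deviations of -0.043, -0.12 and -0.17 for replicates 1, 2 and 3. Of the 22 members, 9 were lower and 3 (Ube2o and Ube2g2 among them) higher in every alternative that could be fitted, while the other 10 changed sign in at least 1. The 7 members lower in every pre-AML library were 6 after scaling to recovered reads (9.79% of all genes), 7 after quantile normalization (11.3%), 5 without length and GC trends (8.23%) and 8 without pre-AML 3 (15.1%), where Ube2z was added. Principal transcript lengths moved the mean log2 ratio to -2.69 for Ube2d1 to Ube2d2a, -3.05 for Ube2d1 to Ube2d3, -0.36 for Ube2d2a to Ube2d3, -1.59 for Ube2e1 to Ube2e3, -2.73 for Ube2l3 to Ube2l6 and 1.26 for Ube2m to Ube2f, by the change of length alone. No ratio turned its sign. With 3 libraries per group, differences the size of the replicate spread were not detectable, and for Ube2c, Ube2s, Ube2t, Ube2v2 and Ube2e2 the depth limits any comparison.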
